A study of Danio rerio with 2 samples.

Results

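Among single GFP+ cells of zebrafish embryos, 255 of 2081 kept cells carried a p53 response signature. A cell was counted as a member where at least 1 UMI, a tagged molecule counted once, was found for at least 3 of 7 genes: pmaip1, mdm2, cdkn1a, phlda3, ms4a17a.10, si:ch211-11n16.3 and isl1l. The members were thus chosen on their own expression values, and the levels of these 7 genes in them are a description. The cells came from etv2ci32Gt; UAS:GFP embryos at the 20-somite stage, in which a gal4 trap sits within the coding sequence of etv2, a regulator of early vascular and blood development. Homozygous embryos carried the trap on both copies of etv2 and heterozygous embryos on a single copy, so that both groups had a disrupted copy and the GFP reporter, and no group without the trap was analysed. Whole embryos were pooled and dissociated, GFP+ cells were sorted, and 1 droplet library per genotype was sequenced. The homozygous library gave 473 kept cells with 54 members, and the heterozygous library 1608 kept cells with 201 members. With 1 library per genotype there was no replicate and no test was made, and all intervals given cover counting error only, at 95%.

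The transcription factor p53 is held at a low level in unstressed cells, largely by Mdm2, a ubiquitin ligase that is itself a p53 target. Upon DNA damage or other stress p53 accumulates and raises genes that halt the cell cycle, such as cdkn1a, and genes that promote cell death, such as pmaip1 and bbc3, both of which encode BH3-only proteins. Phlda3 is known from human and mouse cells as a p53 target that holds back Akt, and ms4a17a.10 belongs to a family of membrane-spanning proteins. The labels describe the sorted cells as endothelial, but the kept cells also fell into groups with the markers of erythroid cells, macrophages, mesoderm, muscle, neural and epidermal cells. As a check of the genotype labels, etv2 had 95 UMIs in homozygous and 4908 UMIs in heterozygous kept cells, that is 15.13 and 290.2 CPM, the UMIs of a gene per 1000000 UMIs of all genes in the same cells.

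The members were deep cells by their median. A rule that asks for UMIs of several genes is met more easily where more UMIs are read, and its part in their depth was not tested. Homozygous members had a median of 21733 UMIs, against 12328 in the other homozygous cells, and heterozygous members had 14968 UMIs, against 9330. Of homozygous cells with 2500 to 5000 UMIs 3.95% were members (3 of 76, exact binomial interval 0.822 to 11.1%), and of those with at least 20000 UMIs 35.2% (32 of 91, 25.4 to 45.9%). In the heterozygous library these shares were 3.13% (10 of 319, 1.51 to 5.69%) and 51.8% (58 of 112, 42.1 to 61.3%). Members were therefore set against the same number of other cells of their own library, each paired on total UMIs. The matched cells had medians of 21772.5 and 14987 UMIs in the homozygous and heterozygous libraries. At this matched depth the median number of genes found per cell was 2689 in homozygous members, against 2748 in matched cells, and 2427 in heterozygous members, against 2441. Mitochondrial genes took a median of 1.31% of the UMIs of members in both libraries, against 1.16% in homozygous and 1.26% in heterozygous matched cells.

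The si:ch211-11n16.3 and pmaip1 genes were the most often found of the rule. In homozygous members si:ch211-11n16.3 had 720.9 CPM and was found in 47 of 54 cells, against 106 CPM and 13 of 54 matched cells. In heterozygous members it had 1144 CPM and was found in 187 of 201 cells, against 125 CPM and 86 matched cells, and 1 cell held 698 of its 3561 UMIs. Pmaip1 had 366 CPM in homozygous members (50 of 54 cells), against 65.4 CPM in matched cells (15 cells). In heterozygous members it had 145 CPM (150 of 201 cells), against 22.6 CPM (40 cells). Mdm2 was found in 34 homozygous and 127 heterozygous members, at 69.8 and 93.5 CPM, against 22.1 and 10.98 CPM in the matched cells. Ms4a17a.10 had the widest contrast of the 7 genes in the homozygous library, with 115 UMIs in members and 3 UMIs in matched cells (104 and 2.76 CPM). In the heterozygous library it had 315 and 19 UMIs (101 and 6.32 CPM).

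The remaining 3 genes of the rule were found in fewer members. Phlda3 was found in 17 of 54 homozygous members at 26.3 CPM, against 4.61 CPM in matched cells, and in 94 of 201 heterozygous members at 94.1 CPM, against 12.6 CPM. Cdkn1a, which encodes an inhibitor of cyclin-dependent kinases, was the rarest: 6 UMIs in 5 homozygous members, against 1 UMI in matched cells, and 61 UMIs in 40 heterozygous members, against 3 UMIs. Isl1l had 70 UMIs in 27 homozygous members, against 11 UMIs in matched cells. In the heterozygous library its 91 UMIs lay in 50 members and none was found in matched cells. The exact interval of this ratio had a lower limit of 23.3, and 3 counts put in place of 0 gave a ratio of 29.3. Barcodes of 1 to 100 UMIs, taken as empty droplets, held pmaip1 at 50.9 CPM in the homozygous and 36.7 CPM in the heterozygous library, and si:ch211-11n16.3 at 311 and 258 CPM. The level of si:ch211-11n16.3 in matched cells was thus below that of the empty droplets in both libraries, and the part of free RNA in the UMIs of this gene was not tested.

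**Figure D1:**
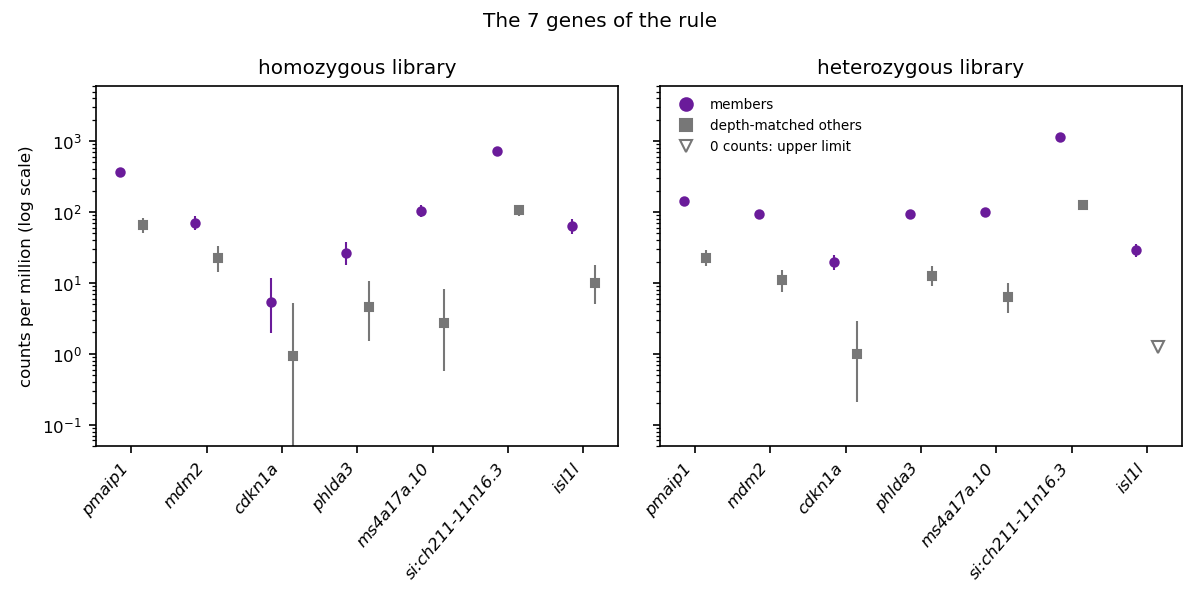
Level of each of the 7 genes that chose the members, in CPM on a log axis, in members and in depth-matched other cells of the homozygous and heterozygous libraries. Bars on the points are exact Poisson intervals. Every gene is higher in members by construction, and isl1l in heterozygous matched cells has 0 UMIs.

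Members did not share a single combination of these genes. The 54 homozygous members showed 20 different combinations and the 201 heterozygous members 46. The most frequent was pmaip1 with ms4a17a.10 and si:ch211-11n16.3 in the homozygous library, in 8 members, and pmaip1 with mdm2 and si:ch211-11n16.3 in the heterozygous library, in 23 members. Cdkn1a and isl1l were found together in 0 homozygous and 7 heterozygous members. Of the homozygous kept cells 241 showed none of the 7 genes, 124 showed 1, 54 showed 2, 26 showed 3, 12 showed 4, 11 showed 5 and 5 showed 6. The heterozygous numbers were 763, 437, 207, 104, 53, 30 and 12, and 2 cells showed all 7. There was no gap in this distribution at the limit of 3 genes.

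Genes that the rule did not use were read across the same scale. Rps27l, a relative of ribosomal protein S27 that is a p53 target in human cells, had 233, 336, 522, 2213, 2496 and 2530 CPM in homozygous cells with 0, 1, 2, 3, 4 and at least 5 genes of the rule. In heterozygous cells the values were 223, 305, 641, 1259, 2424 and 3048 CPM. Ccng1, the gene of cyclin G1 and a p53 target in mammals, had 481, 519, 616, 999.9, 1055 and 1102 CPM in homozygous cells and 478, 543, 816, 1241, 1982 and 2068 CPM in heterozygous cells. Both genes were thus highest in cells with 4 or more genes of the rule in both libraries, although the intervals of ccng1 at 3 and at 4 or more genes overlapped in homozygous cells. Plk3 did not follow this: homozygous cells had 180 CPM (133 to 238) at 4 genes and 71.1 CPM (46.5 to 104) at 5 or more. Depth differed along the scale, with medians of 10296 UMIs at 0 and 22643 UMIs at 5 or more genes in homozygous cells. In heterozygous cells these were 7487 and 21262 UMIs. At the limit itself, homozygous members with exactly 3 genes had rps27l at 2213 CPM (2080 to 2352), against 522 CPM (475 to 572) in cells with exactly 2, at median depths of 18888 and 17700.0 UMIs. Heterozygous members with exactly 3 had 1259 CPM (1201 to 1318), against 641 CPM (611 to 672), at 13644.5 and 12579 UMIs.

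**Figure D2:**
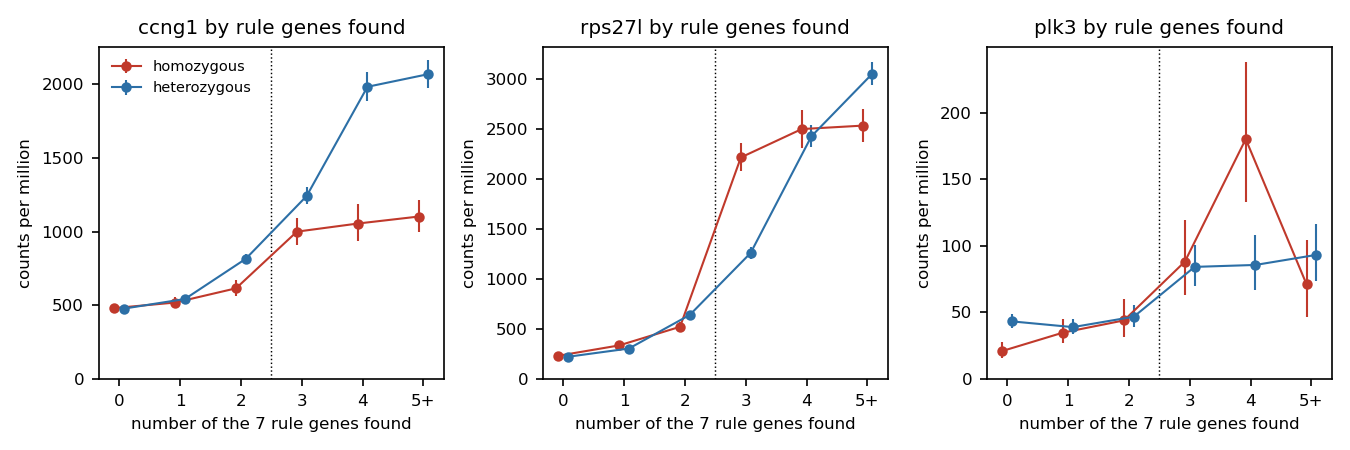
Level of ccng1, rps27l and plk3 in CPM against the number of the 7 genes of the rule found in a cell, for homozygous and heterozygous cells, with exact Poisson intervals. Rps27l shows its widest step in homozygous cells between 2 genes (522 CPM) and 3 genes (2213 CPM).

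A list of 42 other p53 target genes, 40 of them in the files, leaves out the 7 genes of the rule. Its summed level was 4488 CPM in homozygous members, against 2027 CPM in matched cells, a ratio of 2.21 (2.105 to 2.33). In the heterozygous library it was 4946 CPM in members, against 1861 CPM, a ratio of 2.66 (2.58 to 2.74). This excess lay in few genes. Of 15 list genes with at least 50 UMIs in the homozygous comparison, 3 were at least 2-fold higher in members (20.0%), against 1.84% of all 2930 genes with that many UMIs. Of 23 in the heterozygous comparison 6 were at least 2-fold higher (26.1%), against 1.71% of all 5601 genes. At least 2-fold lower were 1 of 15 list genes, against 4.13% of all genes, and 0 of 23, against 5.8%. The median ratio of the list genes was 0.963 in the homozygous and 1.07 in the heterozygous library, against 0.943 and 0.936 over all genes counted. Without rps27l and ccng1, its most abundant members, the summed list was at 0.906 (0.836 to 0.982) in the homozygous and 1.34 (1.27 to 1.41) in the heterozygous library, a setting chosen after the values were seen.

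Rps27l stood out in level. It had 2633 UMIs in homozygous members, against 369 in matched cells, or 2388 against 340 CPM, a ratio of 7.02 (6.30 to 7.85). It was found in 54 of 54 homozygous members and in 47 of 54 matched cells. In the heterozygous library it had 2058 CPM in members, against 384 CPM, a ratio of 5.36 (5.03 to 5.71), and was found in 199 of 201 members and 182 matched cells. The ordinary ribosomal protein genes of similar name did not share this difference. Rps27.1 was at 1.14 and 1.04 times its matched level in the homozygous and heterozygous libraries, rps27.2 at 1.09 and 1.06 times and rps27a at 1.08 and 1.09 times. Ribosomal protein genes as a list of 88 took 41.3% of UMIs in homozygous members, against 37.2% in matched cells, and 39.1% against 36.5% in the heterozygous library, with rps27l included.

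Other genes of the p53 pathway with higher levels in members included plk3, gadd45aa, ccng1 and sesn3. Plk3, a polo-like kinase of the stress response, had 105 CPM in homozygous members, against 27.6 CPM in matched cells (ratio 3.81, 2.53 to 5.89) and 87.1 against 33.3 CPM in the heterozygous library (ratio 2.62, 2.07 to 3.33). Gadd45aa, of a family induced by DNA damage, had 31 UMIs in homozygous members, against 5 in matched cells, and 59 against 5 in the heterozygous library (ratio 11.4, 4.62 to 36.4). Ccng1 reached a ratio of 1.99 (1.80 to 2.21) in the homozygous library and of 2.96 (2.80 to 3.13) in the heterozygous library. Sesn3, a sestrin of the stress response, had 85 UMIs in heterozygous members, against 24 in matched cells (ratio 3.42, 2.15 to 5.63). Only 7 UMIs of sesn3 were found in homozygous members, against 6, which leaves an interval of 0.330 to 4.14 around its ratio of 1.15.

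Cell death genes of the list varied. The bbc3 gene, known as Puma in mammals, had 4 UMIs in homozygous members and none in matched cells, and 23 against 4 UMIs in the heterozygous library (ratio 5.55, 1.90 to 22.1). Bida, which encodes a Bid protein, was at 1.46 times the matched level (0.921 to 2.35) in the homozygous and 1.83 times (1.36 to 2.49) in the heterozygous library. Baxa, a pore-forming effector of apoptosis, was at 0.90 (0.640 to 1.25) and 1.07 (0.877 to 1.29). Casp8, an initiator caspase, had 29 UMIs in heterozygous members, against 11 in matched cells. Btg2, an antiproliferative gene of the list, was at 0.53 (0.437 to 0.640) in the homozygous and 0.96 (0.848 to 1.09) in the heterozygous library, and gadd45ba at 0.61 (0.495 to 0.753) and 1.03 (0.892 to 1.19). Mdm4, an inhibitor of p53 related to mdm2, was at 0.48 (0.251 to 0.876) and 0.74 (0.534 to 1.01). Tp53inp1, which encodes a p53-inducible nuclear protein, lay on opposite sides, with 21 UMIs in homozygous members, against 39 in matched cells, and 161 against 81 UMIs in the heterozygous library.

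**Figure D3:**
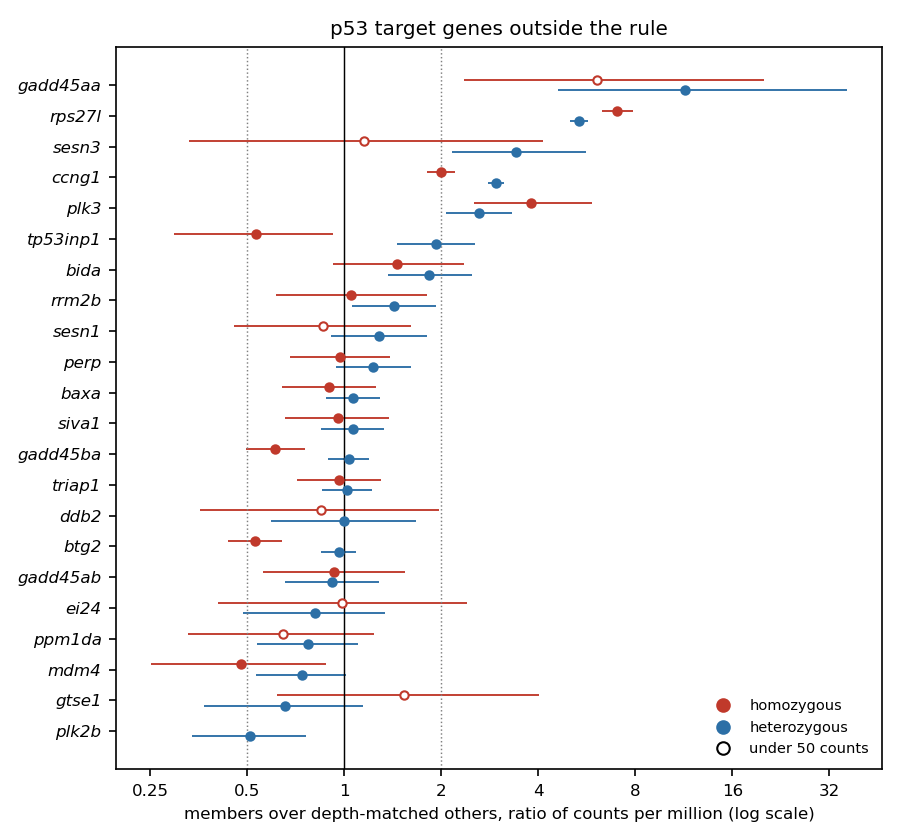
Ratio of p53 target genes in members over depth-matched other cells on a log axis, for the homozygous and heterozygous libraries, with exact intervals; the 7 genes of the rule are left out. Rps27l, plk3 and ccng1 lie above 1 in both libraries, while btg2, gadd45ba and mdm4 lie below 1 in the homozygous library.

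Apoptosis machinery as a list of 22 genes was at 1.02 (0.952 to 1.095) in homozygous members and 0.966 (0.923 to 1.01) in heterozygous members. Only 2 of its genes in the homozygous and 8 in the heterozygous comparison had at least 50 UMIs, and 0 of these were 2-fold higher, against 1.84 and 1.71% of all genes, so that the counts say little. Mcl1a, a Bcl-2 relative that protects from apoptosis, was at 0.61 (0.481 to 0.779) in the homozygous and 0.59 (0.519 to 0.671) in the heterozygous library. DNA damage response genes were at 0.850 (0.769 to 0.939) and 0.988 (0.930 to 1.05). Of these 0 of 6 and 0 of 12 genes with at least 50 UMIs were 2-fold higher, which is not apart from the same shares of all genes. Replication genes were at 0.832 (0.769 to 0.901) in homozygous and 0.763 (0.731 to 0.798) in heterozygous members. Among them rrm2, a subunit of ribonucleotide reductase, was at 0.43 (0.337 to 0.551) and 0.63 (0.561 to 0.710), and pcna, the sliding clamp of the polymerases, at 0.82 (0.709 to 0.942) and 0.86 (0.801 to 0.930). Mitosis genes were at 0.927 (0.865 to 0.992) and 0.975 (0.927 to 1.03). The cell cycle lists depended on the cells set against the members: in the homozygous library mitosis genes were at 1.22 when the matched cells were taken from the same cluster, where those of the largest group of members were shallower, and replication genes at 1.04 when a cluster of cells that no marker list named was left out.

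Immediate early genes, which are switched on within minutes by many stimuli, including cell handling, were lower in members. The list was at 0.581 (0.546 to 0.618) in homozygous and 0.696 (0.664 to 0.730) in heterozygous members. Fosab was at 0.52 (0.476 to 0.571) and 0.78 (0.727 to 0.838), jun at 0.70 (0.611 to 0.793) and 0.78 (0.697 to 0.863), and atf3 at 0.33 (0.216 to 0.488) and 0.48 (0.370 to 0.626). Unfolded protein and heat shock genes were at 0.824 (0.785 to 0.865) and 0.839 (0.816 to 0.863). Both lists were thus below 1 in members of both libraries, where the p53 list was above 2. Within the groups of cells described below, immediate early genes were at 0.768 in homozygous and 1.001 in heterozygous erythroid-like members. Heterozygous endothelial-like, progenitor-like and macrophage-like members had them at 0.597, 0.749 and 0.882. In the unnamed cluster, where the paired cells were shallower, they were at 1.27 in homozygous and 1.43 in heterozygous members.

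Among all genes outside the rule, 2895 had at least 50 UMIs in each library's comparison and were found in at least 10 members of each library. Of these, 1875 lay on the same side of 1 in both libraries, 739 higher and 1136 lower in members. They were ranked by the mean of both ratios, and 12 genes from each end of that ranking are described. The highest was si:dkey-40h20.1, with 64 UMIs in homozygous members, against 6 in matched cells (ratio 10.5, 4.57 to 29.7), and 234 against 12 UMIs in the heterozygous library (ratio 18.8, 10.6 to 37.0). Rps27l came next. The gene ENSDARG00000044212 was at 4.92 (2.75 to 9.46) in the homozygous and 4.205 (2.83 to 6.43) in the heterozygous library. Map2, a microtubule-associated protein best known from neurons, had 139 CPM in homozygous members, against 12.9 CPM in matched cells (ratio 10.8, 6.22 to 20.14), and 68.1 against 35.6 CPM in the heterozygous library (ratio 1.91, 1.51 to 2.44). Nupr1a, of a family of stress-induced nuclear proteins, was at 2.65 (2.07 to 3.42) and 4.73 (4.12 to 5.46). Hacd1, an enzyme of very long chain fatty acid synthesis, was at 4.79 (3.22 to 7.35) and 2.51 (2.06 to 3.07), and rbp5, a retinol-binding protein, at 3.80 (2.36 to 6.38) and 2.32 (1.94 to 2.78). CR388166.1 was at 4.03 and 3.08, si:ch211-57i17.2 at 3.94 and 2.52, and dnaja at 1.93 and 3.80. Plk3 of the p53 list was also among these 12 genes.

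The 12 lowest genes of this ranking were led by globins. Genes found in fewer than 10 members of a library could not enter it, however low they were. Foxd1, for example, had 4 UMIs in homozygous members, against 70 in matched cells, and 5 against 66 UMIs in the heterozygous library. Hbbe1.3 had 293 CPM in homozygous members, against 1469.7 CPM in matched cells (ratio 0.199, 0.176 to 0.225), and 304 against 1189.6 CPM in the heterozygous library (ratio 0.255, 0.237 to 0.274). Hbae1.3 was at 0.277 and 0.261, hbae3 at 0.273 and 0.280 and hbbe1.2 at 0.302 and 0.284 in the homozygous and heterozygous libraries. Tspo, a protein of the outer mitochondrial membrane, was at 0.194 (0.104 to 0.341) and 0.337 (0.226 to 0.491). Id3, an inhibitor of helix-loop-helix factors, was at 0.196 (0.149 to 0.254) and 0.364 (0.315 to 0.419), and cxcl12b, a chemokine, at 0.238 (0.142 to 0.382) and 0.343 (0.267 to 0.439). Pfn1, an actin-binding profilin, was at 0.374 (0.301 to 0.462) and 0.396 (0.374 to 0.419). Marcksl1b, ankhb, ENSDARG00000096331 and pde7a lay between 0.276 and 0.466. In homozygous members outside the unnamed cluster of cells hbbe1.2 was at 1.02, ENSDARG00000096331 at 1.33 and pde7a at 1.17, so that these 3 differences turned with the cells included. Ankhb was at 1.03 in heterozygous members outside that cluster, and pfn1 at 1.02 in homozygous cells with at least 2 genes of the rule.

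Genes that mark a lineage were lower in members as lists. Of 12 lineage lists 11 were below 1 in each library, the exceptions being the macrophage list in the homozygous library and the tailbud list in the heterozygous library. Neural genes had 17 UMIs in homozygous members, against 376 in matched cells, a ratio of 0.0445 (0.0256 to 0.0722), and were at 0.501 (0.424 to 0.589) in the heterozygous library. Skeletal muscle genes were at 0.189 (0.143 to 0.246) and 0.645 (0.524 to 0.793), lateral plate mesoderm genes at 0.331 (0.297 to 0.369) and 0.469 (0.436 to 0.504). Erythroid genes were at 0.347 (0.340 to 0.353) and 0.419 (0.413 to 0.426), with 8 of 13 and 6 of 13 genes at least 2-fold lower, against 4.13 and 5.8% of all genes. Macrophage genes were at 1.25 (1.07 to 1.47) in homozygous members and at 0.472 (0.446 to 0.499) in heterozygous members, where 9 of 11 genes with at least 50 UMIs were at least 2-fold lower, against 5.8% of all genes. The homozygous value above 1 was carried by 2 genes, the myeloid transcription factors cebpa, with 260 UMIs in members, against 188, and spi1b, with 86 against 55. Without them the list had 21 against 45 UMIs, a ratio of 0.459 (0.260 to 0.787), and 0.307 (0.283 to 0.332) in heterozygous members, a setting chosen after the values were seen. Endothelial genes were at 0.867 (0.710 to 1.06) and 0.675 (0.640 to 0.713), and endothelial progenitor genes at 0.476 (0.438 to 0.518) and 0.745 (0.723 to 0.768). Of 13 endothelial genes in the heterozygous comparison 4 were at least 2-fold lower, against 5.8% of all genes, and 1 at least 2-fold higher, against 1.71%. The higher gene was ecscr, at 2.01 (1.69 to 2.39), with 20 against 9 UMIs in the homozygous library. Outside the unnamed cluster the homozygous erythroid list was at 1.01. The homozygous macrophage list was at 0.809 with si:ch211-11n16.3 and isl1l left out of the rule, and the cardiomyocyte, epidermal and tailbud lists in homozygous and the muscle, neural, epidermal and pronephros lists in heterozygous members were above 1 in at least 1 alternative. These values depend both on which kinds of cells were members and on the level within each kind.

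**Figure D4:**
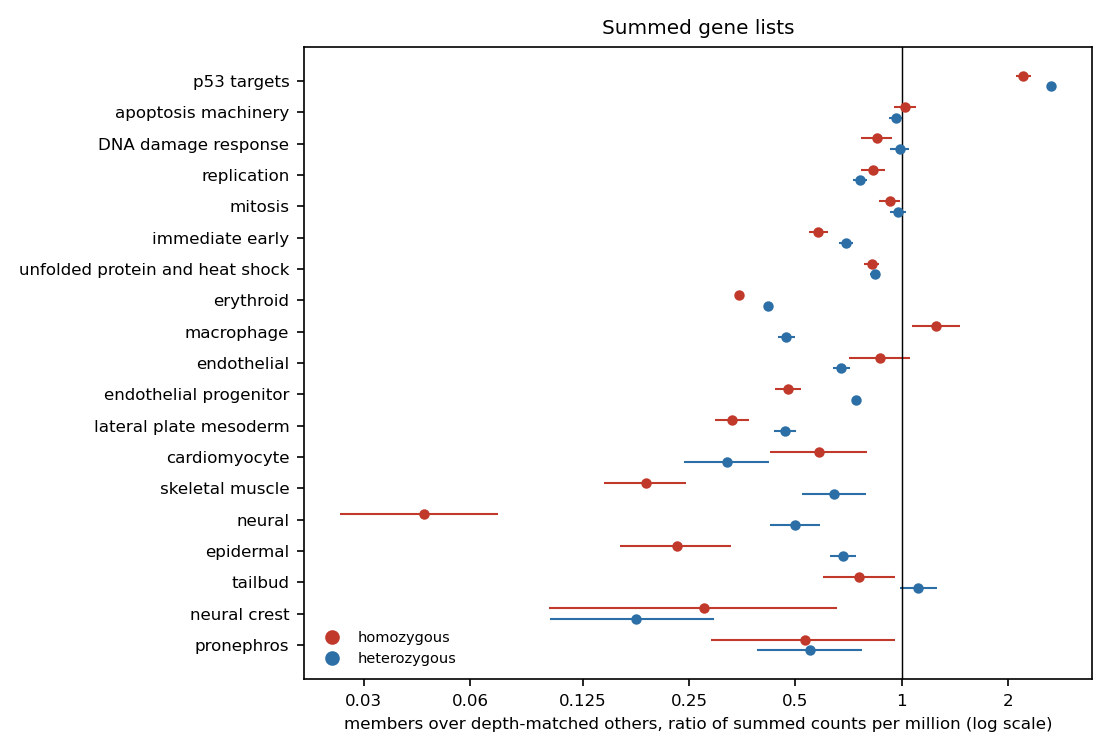
Ratio of each gene list, summed, in members over depth-matched other cells on a log axis, with exact intervals, for the homozygous and heterozygous libraries. The p53 list lies above 2 in both libraries, and most lineage lists lie below 1.

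All kept cells were clustered without the 7 genes of the rule and the p53 list. Most members lay in a single cluster that no marker list named. This unnamed cluster held 36 members among 104 homozygous cells, or 34.6% (25.6 to 44.6%), and 102 among 243 heterozygous cells, or 42.0% (35.7 to 48.5%). It thereby held 66.7% of all homozygous and 50.7% of all heterozygous members, but 22.0% and 15.11% of kept cells. None of the 15 endothelial markers, or of the 7 endothelial progenitor markers, was enriched 2-fold in it, and no other lineage list had an enriched marker either. The genes with the highest fold in it were si:ch211-11n16.3, ms4a17a.10, pmaip1, rps27l, nupr1a, mdm2, hsp90aa1.2, map2, capn8 and si:ch211-226l4.6. Of these 10 genes 4 belong to the rule and 1, rps27l, to the p53 list, and the clustering used none of these 5. Capn8, a calpain protease, was at 2.51 (2.13 to 2.95) in all homozygous members and 2.55 (2.23 to 2.93) in all heterozygous members. At a finer resolution this cluster split into a deeper and a shallower piece, and the basis of the split was not tested. The deeper piece, with median depths of 22400.0 UMIs in homozygous and 16782.5 UMIs in heterozygous cells, held members at 60.8% (31 of 51) and 63.9% (78 of 122), and the shallower one, at 3466 and 4305 UMIs, at 9.62% (5 of 52) and 20.2% (24 of 119).

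Erythroid-like cells, with 14 of 14 markers enriched, were the next source of members. They held 15 members among 124 homozygous cells (12.1%, 6.93 to 19.2%) and 48 among 257 heterozygous cells (18.7%, 14.1 to 24.0%). In the heterozygous library 16 of 228 macrophage-like cells (7.02%, 4.06 to 11.1%), 13 of 224 endothelial progenitor-like cells (5.80%, 3.13 to 9.72%) and 15 of 236 and 1 of 141 cells of the 2 endothelial-like clusters were members. Homozygous embryos gave only 3 macrophage-like, 5 endothelial progenitor-like and 2 endothelial-like cells, none of them a member, which says little about their share. Among lateral plate mesoderm-like cells 3 of 83 homozygous and 2 of 73 heterozygous cells were members. No member was found among 23 homozygous and 81 heterozygous neural-like cells (upper limits 14.8 and 4.45%), nor among 61 and 20 cardiomyocyte-like cells (5.87 and 16.8%) or 22 and 20 skeletal muscle-like cells (15.4 and 16.8%). Median depths were 15126 UMIs in homozygous and 10142 UMIs in heterozygous neural-like cells. In the same order they were 6356 and 6072 UMIs in cardiomyocyte-like and 14156.5 and 7947 UMIs in skeletal muscle-like cells. The part of depth in the absence of members was not tested. Cells with at least 5000 UMIs were also thinned to 5000 UMIs, and shallower cells were left out. This kept 63 of 104 homozygous and 154 of 243 heterozygous cells of the unnamed cluster. With the rule applied again, that cluster held members at 28.6% of homozygous cells (18 of 63) and 33.8% of heterozygous cells (52 of 154). Erythroid-like cells then held them at 5.08% (6 of 118) and 7.20% (17 of 236). In the heterozygous library macrophage-like cells then held them at 0.971% (2 of 206) and endothelial progenitor-like cells at 2.21% (4 of 181). The endothelial-like clusters held them at 4.55% (7 of 154) and 0.813% (1 of 123).

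**Figure D5:**
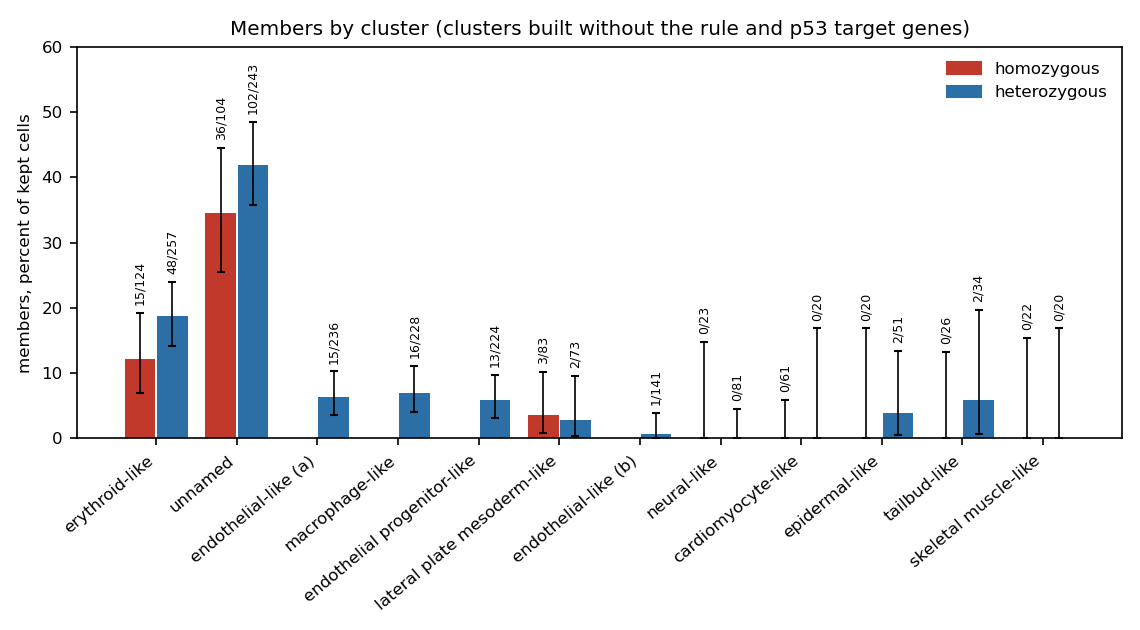
Share of cells that were members in each cluster, in percent with exact binomial intervals, for homozygous and heterozygous cells. The unnamed cluster has the highest share in both libraries (34.6 and 42.0%), followed by erythroid-like cells (12.1 and 18.7%).

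Within the named groups, members were set against depth-matched cells of the same group and library. Erythroid-like members held less of the erythroid list: 25882 CPM in the homozygous library, against 47046 CPM (ratio 0.550, 0.533 to 0.567), and 18921 against 40364 CPM in the heterozygous library (ratio 0.469, 0.459 to 0.479). Hbbe3, an embryonic beta globin, was at 0.528 (0.494 to 0.563) and 0.522 (0.501 to 0.543), and klf17, an erythroid transcription factor, at 0.639 (0.505 to 0.807) and 0.608 (0.531 to 0.695). Gata1a, the master regulator of the lineage, had 59 UMIs in homozygous members, against 55, and 115 against 161 UMIs in heterozygous members (ratio 0.715, 0.558 to 0.914). Erythroid-like members thus carried erythroid mRNA at a lower level. Their macrophage and endothelial lists were at 1.03 and 0.613 in the homozygous and at 1.22 and 1.001 in the heterozygous library. Outside the unnamed cluster, but without regard to lineage, the erythroid list was at 1.01 in homozygous members, so that the lower level within the group does not show in that mix of cells.

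The summed p53 list was higher in erythroid-like members as well, at 2.61 (2.33 to 2.93) in homozygous and 2.09 (1.96 to 2.23) in heterozygous members. In the homozygous library rps27l and ccng1 gave 642 and 184 of its 1093 UMIs in these members, against 28 and 86 of 417 in matched cells. Within groups of cells the list was not summed without rps27l and ccng1, so a rise of its other genes is not shown. Rps27l had 2655 CPM in homozygous erythroid-like members, against 116 CPM in matched erythroid-like cells, where 1 cell held 246 of the 642 UMIs of the members, and 1792 against 528 CPM in the heterozygous library. Pmaip1 was found in 14 of 15 homozygous and 46 of 48 heterozygous erythroid-like members, against 6 and 13 matched cells. Isl1l had 19 UMIs in homozygous and 36 UMIs in heterozygous erythroid-like members, against 1 UMI each. Map2 was at 9.16 (3.65 to 29.5) in the homozygous and 1.23 (0.769 to 1.98) in the heterozygous erythroid-like members.

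Endothelial-like members were 16 cells of the heterozygous library. At least 3 of the 7 genes of the rule had to be found in each, so the levels of these genes in them are a description. Pmaip1 was found in 4 of these 16 cells, with 8 UMIs against 3 in matched endothelial-like cells, and isl1l had 1 UMI. Phlda3 had 56 UMIs in 10 cells, against 1 UMI, mdm2 had 24 UMIs in 14 cells, against 1 UMI, and ms4a17a.10 had 44 UMIs in 12 cells, against 3 UMIs. Of genes outside the rule rps27l was at 7.63 (5.99 to 9.85) and ccng1 at 3.98 (3.30 to 4.83), and bbc3 had 9 UMIs against 0. The summed p53 list was at 3.45 (3.10 to 3.85) in these members. Their endothelial list was at 0.714 (0.642 to 0.793), with cdh5, the endothelial cadherin, at 45 UMIs against 53, and etv2 at 53 UMIs against 86 (ratio 0.576, 0.401 to 0.821). Lists of other cell types went both ways in the same 16 cells. The erythroid list was at 2.01 (1.61 to 2.51) and the tailbud list at 2.02 (1.43 to 2.88). Lateral plate mesoderm genes were at 0.422 (0.324 to 0.545), epidermal genes at 0.304 (0.149 to 0.580) and endothelial progenitor genes at 0.791 (0.721 to 0.869). Cardiomyocyte genes had 2 UMIs, against 15 in matched cells. The macrophage, skeletal muscle, neural, neural crest and pronephros lists had intervals that included 1. A single cell held 30 of the 51 UMIs of hbbe3 in these members. The part of the erythroid and tailbud markers in the lower endothelial list was not tested.

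Endothelial progenitor-like members, 13 heterozygous cells, held their own markers at the level of matched cells. Etv2 had 1448 CPM in these members, against 1555 CPM (ratio 0.931, 0.780 to 1.11), tal1 4617 against 4876 CPM (0.947, 0.858 to 1.04) and lmo2 9425 against 9168 CPM (1.03, 0.959 to 1.103), the last 2 encoding partners in the complex that directs blood and vessel progenitors. The progenitor list was at 0.982 (0.935 to 1.03), and the list of later endothelial genes at 0.712 (0.632 to 0.802). Mdm2 had 19 UMIs in 7 of the members and 0 in matched cells, phlda3 was found in 10 members, and isl1l in none. The p53 list was at 1.86 (1.61 to 2.15), rps27l at 3.24 (2.07 to 5.24) and ccng1 at 3.69 (2.83 to 4.85). Replication genes were at 1.59 (1.26 to 2.02) in progenitor-like members, against 0.619 (0.505 to 0.758) in endothelial-like members.

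Macrophage-like members, 16 heterozygous cells, carried mdm2 at 19 UMIs against 2 and ms4a17a.10 at 21 UMIs against 1. Si:ch211-11n16.3 had 29 UMIs in macrophage-like members and 30 in matched macrophage-like cells, although it helped to choose them, and it was found in 15 members against 10 matched cells. The p53 list was at 1.99 (1.75 to 2.27) and rps27l at 3.18 (2.47 to 4.12). The macrophage list was at 0.677 (0.620 to 0.738), with cebpb, a myeloid transcription factor, at 0.665 (0.549 to 0.803) and spi1b, the zebrafish Pu.1, at 0.833 (0.641 to 1.08). In the same members the erythroid list was at 1.31 (1.12 to 1.54) and the endothelial progenitor list at 1.38 (1.08 to 1.76), and their part in the lower macrophage list was not tested. Replication genes were at 0.413 (0.330 to 0.514). The summed p53 list, with rps27l and ccng1 included, was above 1 in all 5 of these group and library combinations. Pmaip1 and isl1l helped to choose the members, so their levels are given over all heterozygous cells of a group. Pmaip1 had 77.9 CPM in heterozygous erythroid-like, 11.1 CPM in endothelial-like, 15.07 CPM in endothelial progenitor-like and 12.7 CPM in macrophage-like cells, and isl1l had 11.5, 0.310, 0 and 0.748 CPM. Heterozygous cells of the unnamed cluster had more of both genes, at 122 CPM of pmaip1 and 20.2 CPM of isl1l.

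Members of the unnamed cluster could not be depth-matched within it, since they had a median of 24337 UMIs in homozygous cells, against 6786.5 in the cells they were paired with, and 16964 against 5655.5 UMIs in heterozygous cells. Their erythroid list stood at 10548 CPM in the homozygous and 5775 CPM in the heterozygous library, and hemoglobin at 9487 and 4860 CPM. In named groups that are not erythroid, hemoglobin had 469 and 506 CPM, against 22899 and 11928 CPM in empty droplets. The hemoglobin of these members was thus higher than in the named groups that are not erythroid and lower than in empty droplets, and the part of free RNA in it was not tested. Their erythroid list was below the 25882 and 18921 CPM of homozygous and heterozygous erythroid-like members. A caller of doublets marked 1 homozygous and 4 heterozygous cells, 1 of them a member. The caller itself was not checked, and the part of doublets was not tested. Rps27l had 2392 CPM in homozygous and 2451 CPM in heterozygous members of this cluster, and pmaip1 356 and 160 CPM.

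Between the genotypes the share of members did not differ by more than the counting error. Members made up 11.4% of homozygous cells (8.69 to 14.6%) and 12.5% of heterozygous cells (10.9 to 14.2%), a difference of -1.08 percentage points (Newcombe interval -4.16 to 2.45). Thinning left out the cells below the depth set. After thinning to 5000 UMIs the shares were 6.30% (25 of 397) and 6.52% (84 of 1289), a difference of -0.219 points (-2.70 to 2.87), and after thinning to 8000 UMIs 9.47 and 10.7%. With at least 4 genes they were 5.92 and 6.03%. The number of members hung on single genes of the rule. Without si:ch211-11n16.3 there were 34 homozygous and 106 heterozygous members, and without pmaip1 31 and 130, against 54 and 201 under the full rule. The difference in share was between -2.05 and 0.60 points when each gene was left out of the rule in turn. These intervals still allow a difference of several points either way, and with 1 library per genotype the genotype and the library cannot be told apart.

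Several genes differed between homozygous and heterozygous members by more than the counting error. Summed p53 list levels were 4488 CPM in homozygous and 4946 CPM in heterozygous members, a ratio of 0.907 (0.879 to 0.937), while in matched cells the ratio was 1.09 (1.04 to 1.14). It was 1.01 for members outside the unnamed cluster. Pmaip1 was 2.53 times as high in homozygous members (2.21 to 2.90), but it was also 2.89 times as high in homozygous matched cells (2.04 to 4.09). Isl1l was at 2.17 (1.57 to 2.998), and had 11 UMIs in homozygous and 0 in heterozygous matched cells. Phlda3 was at 0.279 (0.184 to 0.410) in members and at 0.364 (0.112 to 0.927) in matched cells. Cdkn1a was at 0.278 (0.0981 to 0.640) in members and had 1 and 3 UMIs in homozygous and heterozygous matched cells. These 4 genes helped to choose the members, so their ratios in members and matched cells are a description. Over all kept cells pmaip1 was at 2.39 (2.14 to 2.66), isl1l at 2.44 (1.81 to 3.30), phlda3 at 0.509 (0.399 to 0.643) and cdkn1a at 0.455 (0.225 to 0.846). Ccng1 was at 0.629 (0.590 to 0.671) in members and 0.934 (0.848 to 1.03) in matched cells. Rps27l was at 1.16 (1.11 to 1.21), and at 0.885 (0.785 to 0.996) in matched cells. The mix of groups that the members came from differed between the 2 libraries. The unnamed and erythroid-like groups held 66.7 and 27.8% of homozygous members, and 50.7 and 23.9% of heterozygous members. Endothelial-like, progenitor-like and macrophage-like members were found in the heterozygous library alone. The part of this mix in the ratios was not tested.

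Lineage lists also differed between the members of the 2 libraries. Endothelial genes were at 174 CPM in homozygous and 715 CPM in heterozygous members (ratio 0.243, 0.209 to 0.282), endothelial progenitor genes at 745 and 2402 CPM (0.310, 0.288 to 0.333), macrophage genes at 333 and 600 CPM (0.555, 0.495 to 0.621) and erythroid genes at 13516 and 7486 CPM (1.81, 1.77 to 1.84). Matched cells of the libraries differed in these lists as well, at ratios of 0.190 for endothelial, 0.485 for endothelial progenitor, 0.209 for macrophage and 2.18 for erythroid genes. Immediate early genes were at 1464 and 941 CPM (1.56, 1.46 to 1.65), and in matched cells the ratio was 1.86. Mitosis genes were at 1461 and 974 CPM (1.5, 1.41 to 1.59), and at 1.58 in matched cells.

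Of 4363 genes with at least 50 UMIs in members of both libraries together, the 8 with the highest ratio of homozygous over heterozygous members were egr4 (5.36, 3.59 to 8.11), soul3 (4.85), si:ch211-199g17.2 (4.70), cox8b (4.42), socs3b (4.27, 2.77 to 6.66), si:ch211-121a2.2 (3.70), si:dkey-4i23.5 (3.65) and kif11 (3.58, 2.16 to 5.98). Egr4 is an early response transcription factor, socs3b an inhibitor of cytokine signalling and kif11 a motor of the mitotic spindle. In matched cells all 8 were higher in the homozygous library too, at ratios between 1.54 for si:ch211-199g17.2 and 8.43 for socs3b. The lowest ratio was that of etv2, with 3 UMIs in homozygous and 399 UMIs in heterozygous members (0.0212, 0.00436 to 0.0625). CABZ01075125.1 had 2 and 235 UMIs, nova2 3 and 176 UMIs, MFAP4 (1 of many) 4 and 177 UMIs and kctd12.2 0 and 132 UMIs. The keratin genes cyt1l and cyt1 had 0 UMIs in homozygous members and 225 and 220 UMIs in heterozygous members, and krt4 had 4 and 217. The largest count in a heterozygous member was 220 of these UMIs for cyt1l, 212 for cyt1 and 197 for krt4. In matched cells all 8 of these lowest genes were lower in the homozygous library too, with etv2 at 0.138 (30 and 600 UMIs), kctd12.2 at 1 and 396 UMIs and krt4, the nearest to 1, at 0.359.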

How the data were processed

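GFP+ cells of 1 homozygous and 1 heterozygous library were measured by 3′ droplet sequencing. The authors deposited the raw counts of UMIs of each gene in every barcode, neither filtered nor normalized, whose totals were 7244035 homozygous and 19256969 heterozygous UMIs. The submitters' processing notes name Cell Ranger 2.0.2 and GRCz10, and the gene annotation is not given in the sources used here. Columns that belong to no sample numbered 0.

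A barcode was kept if it had at least 2500 UMIs, over 200 and up to 3500 genes, and no more than 5% of its counts from mitochondrial genes, 473 of 477 homozygous and 1608 of 1625 heterozygous ones. No kept barcode was shared between the libraries. IDs with the same symbol were summed, 25743 IDs into 25212 symbols. Of 686 rows named by ID alone, 403 received a symbol from a reference table of gene names. Genes are given by symbol, and 2 of the ranked genes by ID. Scrublet in scanpy 1.11.5 marked 0.211% of homozygous and 0.249% of heterozygous cells as doublets, and these were kept.

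Matched cells are the same number of non-members of the library, paired by optimal assignment on log10 total UMIs. Ratios are quotients of summed CPM with exact conditional binomial intervals. CPM have exact Poisson intervals, shares have exact Clopper-Pearson intervals, and differences of shares have Newcombe intervals, all at 95%. Gene counts past 2-fold required 50 UMIs in members and matched cells together. Cells are not replicates, and no p-value was computed. Only the ratios and their intervals were checked on simulated counts. These were drawn without variation between cells, so the check does not bear on the choice, matching, thinning or clustering of cells. Cells were clustered by Seurat 5.3.0 (R 4.3.3) on 13 components at resolution 0.6, with 1984 of 2000 variable genes, 16 genes of the rule and the p53 list being left out. A cluster was named after the list with the largest share of markers enriched 2-fold. A name also required at least 3 such markers, and at least as many enriched as not enriched. Python 3.11.15, numpy 2.4.6, scipy 1.17.1 and pandas 2.3.3 were used.

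The members and the gene lists were chosen with earlier results of these data known. The genes described are the 7 of the rule, list genes on which a result turns, the 12 highest and 12 lowest by the geometric mean of both libraries' ratios (at least 50 UMIs per comparison, found in at least 10 members of each library, same side of 1), and the 8 highest and 8 lowest homozygous over heterozygous ratios in members. Capn8, cdh5, hbbe3 and rps27.1, rps27.2 and rps27a were added after their values were seen. Alternatives changed the matching, the rule, the depth, the empty-droplet correction, the minimum of counts and the resolution. The single values of 1 gene of the p53 list are not reported here, and its counts remain in the summed list.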

Additional observations from a re-analysis of the deposited data

Results flagged for a closer look

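A list and a gene lay on opposite sides of 1 in the libraries, each with an interval that left out 1. The macrophage list was at 1.25 times its matched level in homozygous members and at 0.472 times in heterozygous members. The homozygous value rested on cebpa and spi1b: without these 2 genes the list had 21 UMIs in homozygous members, against 45 in matched cells, a ratio of 0.459, and was at 0.307 in heterozygous members, so that both libraries were then on the same side. Tp53inp1 was at 0.53 times its matched level in homozygous members, with 21 against 39 UMIs, and at 1.92 times in heterozygous members, with 161 against 81 UMIs. The difference between the libraries was not tested, since there was 1 library per genotype.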

How the results depend on the processing

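No paired analysis was possible because there was 1 library per genotype. Ratios below are of members over the cells set against them. The p53 list was above 1 in both libraries under every alternative run, except in homozygous members for the sum without rps27l and ccng1, which was 0.906 there and 1.34 in heterozygous members. Matching within the cluster was not a match on depth for members of the unnamed cluster, whose median depths were 24337 UMIs in homozygous and 16964 UMIs in heterozygous cells, against 6786.5 and 5655.5 UMIs in their partners. In homozygous members the p53 list was at 2.397 with matching within the cluster, 1.87 with at least 2 genes of the rule, 2.49 with si:ch211-11n16.3 and isl1l left out of the rule and 2.62 after thinning to 5000 UMIs. In heterozygous members it was 2.25 with matching within the cluster, 2.80 with weighting of other cells by depth, 2.77 with at least 4 genes, 2.22 with at least 2 genes, 2.95 with the pair left out of the rule, 2.74 with the empty-droplet profile subtracted, 2.85 after thinning and 2.37 outside the unnamed cluster. Outside the unnamed cluster, 1 of 5 list genes was at least 2-fold higher in homozygous members (20%), against 1.72% of all genes. In the main comparison it was 3 of 15 (20%), against 1.84%. The ratio of the p53 list in homozygous over heterozygous members was 0.767 with at least 4 genes, 0.813 with the pair left out, 0.772 after thinning and 1.01 outside the unnamed cluster.

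Replication genes in homozygous members were at 0.707 against all other cells, 0.733 within the cluster, 0.911 with the pair left out and 1.04 outside the unnamed cluster. In heterozygous members they were at 0.855 against all other cells and also with at least 2 genes, 0.880 within the cluster, 0.719 with at least 4 genes, 0.674 with the pair left out and 0.859 outside the unnamed cluster. Mitosis genes in homozygous members were at 1.36 against all other cells, 1.22 within the cluster, 0.819 with at least 4 genes, 1.09 with at least 2 genes, 0.820 with the pair left out and 1.04 outside the unnamed cluster. In heterozygous members they were at 1.24 against all other cells, with at least 2 genes and after thinning, 0.871 with weighting, 0.861 with at least 4 genes, 0.899 with the pair left out and 1.03 outside the unnamed cluster.

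Other lists and genes also turned round. Without cebpa and spi1b the macrophage list was at 0.459 in homozygous members. With the pair left out of the rule, the macrophage list was at 0.809, the cardiomyocyte list at 4.97 and the epidermal list at 1.88 in homozygous members, and the muscle list was at 1.25, the neural list at 2.39 and the pronephros list at 1.73 in heterozygous members. Within the cluster, the cardiomyocyte list was at 1.15 and the tailbud list at 1.04 in homozygous members, and the epidermal list at 2.21 and the pronephros list at 1.17 in heterozygous members. With at least 4 genes, the homozygous cardiomyocyte, epidermal and tailbud lists were at 1.25, 1.23 and 3.21 and the heterozygous pronephros list at 1.99, and with at least 2 genes the homozygous epidermal list was at 2.25, the heterozygous pronephros list at 1.42 and homozygous pfn1 at 1.02. With weighting, the heterozygous epidermal and pronephros lists were at 1.25 and 1.14, and after thinning the heterozygous neural list was at 1.23. Outside the unnamed cluster, the homozygous erythroid list was at 1.01, hbbe1.2 at 1.02, ENSDARG00000096331 at 1.33 and pde7a at 1.17, and in heterozygous members the epidermal list was at 1.01 and ankhb at 1.03. The epidermal list had 953 UMIs in heterozygous members, where the largest count in a cell was 220 for cyt1l, 212 for cyt1 and 197 for krt4. Its values there thus rest in large part on very few cells. The cause of the shifts of all these lists and genes was not tested. A change of side was counted only where the interval of the main value left out 1. Over all alternatives this held for 22 of 310 values of the other lists and 5 of 497 values of named genes. It held for 7 of 129 values of the remaining results, which include the p53 and cell cycle lists. Crossings from a main interval that included 1 were not counted.

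The settings outside the unnamed cluster, without marked doublets, without rps27l and ccng1 and without cebpa and spi1b were chosen after seeing the data. Leaving out the 5 marked doublets, 1 of them a member, removed too few cells to bear on any result. The difference between the libraries in the share of members stayed within its interval under each rule and depth tried. For 35 combinations of a result and an alternative no value is given, since fewer than 20 UMIs remained. Genes such as cdkn1a, bbc3 and sesn3 were limited by 6, 4 and 7 UMIs in homozygous members.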
